A study of Mus musculus with 12 samples.

Results

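A set of 9 genes of potassium channels that act near the resting potential was followed in the cerebella of 12 mice, 6 cKO and 6 WT. They are 6 genes of two-pore-domain leak channels (Kcnk1, Kcnk2, Kcnk3, Kcnk9, Kcnk10 and Kcnk12) and 3 genes of G protein-gated inward rectifiers (Kcnj3, Kcnj6 and Kcnj9). All 9 were found by symbol among the 18394 genes of the count table, and all 9 passed the filter on low counts. The genes were picked by family name, but with earlier cKO against WT results of these same libraries in view, so their genotype differences are a description and carry no independent weight. The cKO mice are labelled as a knock-out of Crfr1, the type 1 receptor for corticotropin-releasing factor (symbol Crhr1), made with the Δα6-Cre driver, which is named after a GABA-A receptor subunit typical of cerebellar granule cells. WT mice are the only controls, and the labels name no group with the driver alone, so receptor loss, the driver and DNA linked to either cannot be told apart. The labels give neither age nor sex. Each library is mRNA of a whole cerebellum, sequenced to 32.3 to 58.7 M counts in cKO and 23.8 to 62.1 M counts in WT.

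Leak channels of the K2P family pass potassium at rest and hold the membrane potential negative, each subunit carrying a pair of pore loops and each channel being a dimer. In granule cells a standing outward current carried by the acid-sensitive TASK channels sets input resistance and excitability. GIRK channels are tetramers that open when G protein βγ subunits are released from receptors coupled to Gi or Go, such as the GABA-B receptor, and they slow neuronal firing. A pore mutation in Kcnj6, known from the weaver mouse, leads to the death of granule cells.

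Of the 9 genes, Kcnk9, Kcnk2 and Kcnj3 rose in cKO cerebella and the other 6 did not pass the test. Here a gene is called when edgeR's quasi-likelihood test has an adjusted p under 0.05 over all 15467 tested genes. Of all tested genes, 2.64% were called, 1.27% higher and 1.38% lower in cKO. Since the genes were chosen with this contrast known, nothing is read from the share of 3 in 9. The median log2 fold change of the 9 genes was 0.02, beside -0.00027 over all tested genes. None of the 9 was called lower by edgeR or DESeq2; 1 of them, Kcnj6, was lower at an unadjusted p under 0.05. Of all tested genes, 7.08% were lower at that unadjusted p, and DESeq2 called 2.04% lower among the 14470 genes to which it gave an adjusted p. In a whole cerebellum, a change in the number of cells of a type and one in the RNA per cell cannot be told apart. The cKO libraries also stood higher in markers of tissue from outside the cerebellum, and the 3 calls are given further on with and without an adjustment for these.

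**Figure D1:**
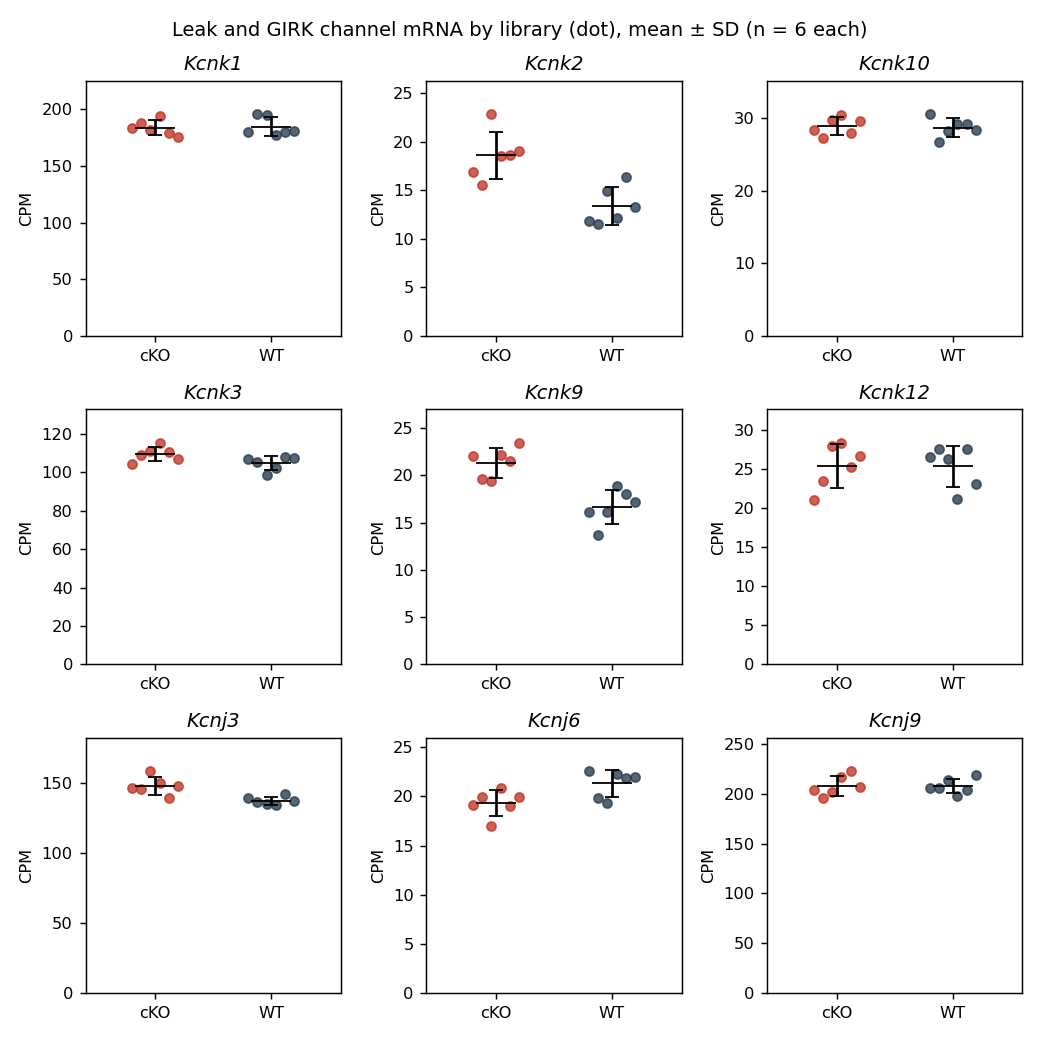
CPM (counts scaled by the TMM-adjusted library size) of each channel gene in every library, cKO left and WT right in each panel. Dots are libraries, lines and bars the mean ± SD (n = 6 each). The cKO dots of Kcnk9 all lie above the WT dots, those of Kcnk2 and Kcnj3 overlap the WT dots slightly, and the remaining panels overlap more, with 3 cKO dots of Kcnj6 below its WT dots.

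Kcnk9 encodes TASK-3, an acid-sensitive leak channel abundant in granule cells, and is imprinted in mouse brain with expression from the maternal allele. It lies on the minus strand of chromosome 15 (72501089 to 72546340, mm10) and shares no exonic sequence with another annotated gene. The cKO libraries ran from 19.4 through a median of 21.8 to 23.4 CPM, and the WT libraries from 13.7 through 16.6 to 18.9 CPM. All 6 cKO libraries were thus higher than all 6 WT libraries, a separation that 2.09% of all tested genes showed in one direction or the other. Kcnk9 rose 1.28-fold (log2 fold change 0.35, SE 0.06, 95% interval 0.22 to 0.49; edgeR adjusted p = 0.00359). Its lowest cKO library and highest WT library differed by less than the SD of either group.

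Kcnk3 encodes TASK-1, the closest relative of TASK-3, with which it can form mixed channels. It gave 104, 110 and 115 CPM as the lowest, median and highest cKO library and 98.8, 106 and 108 CPM as those of WT. The groups overlapped, although 4 cKO libraries were above every WT library. Its log2 fold change of 0.06 (SE 0.03, 95% interval 0.01 to 0.12) had an edgeR adjusted p of 0.293. The summed level of the TASK pair was 131 ± 3.73 CPM in cKO and 121 ± 3.98 CPM in WT (SD, n = 6 each).

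The count of Kcnk9 for each count of Kcnk3, a ratio that no library scaling can change, was 0.195 in cKO and 0.159 in WT (geometric means). On the log2 scale the ratio was -2.36 ± 0.13 in cKO and -2.66 ± 0.17 in WT (SD, n = 6 each), a difference of 0.30 (SE 0.09). Here the groups did overlap, the highest WT library reaching -2.44 and the lowest cKO library -2.52.

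Kcnk2 encodes TREK-1, a leak channel gated by membrane stretch, temperature and polyunsaturated fatty acids. It is on the minus strand of chromosome 1 (189207930 to 189402273, mm10) and shares exonic sequence with an antisense transcript, A430027H14Rik, from which its reads may not have been separated because the counting rule is not given in the sources used here. The same limit holds for Kcnk1, Kcnk3, Kcnj3, Kcnj6 and Kcnj9, which also share exonic sequence with a transcript of the opposite strand. Kcnk2 measured 15.6, 18.6 and 22.8 CPM in the lowest, median and highest cKO library, against 11.5, 12.7 and 16.4 CPM in those of WT. A single pair of libraries broke the separation: 5 cKO libraries lay above every WT library, and 5 WT libraries below every cKO library. Kcnk2 rose 1.39-fold, the largest fold of the 9 (log2 fold change 0.47, SE 0.09, 95% interval 0.29 to 0.66; edgeR adjusted p = 0.00489).

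Kcnk10 encodes TREK-2, which shares the gating of TREK-1. It ranged from 27.2 to 30.4 CPM in cKO (median 29.0) and from 26.7 to 30.5 CPM in WT (median 28.7). The libraries of both genotypes were thoroughly mixed, and the interval of its log2 fold change, -0.06 to 0.09, lay below the interval of Kcnk2. The log2 ratio of Kcnk2 to Kcnk10 counts was -0.64 ± 0.15 in cKO and -1.11 ± 0.21 in WT (SD, n = 6 each), with every cKO library above every WT library. The difference was 0.47 (SE 0.11). The share of other gene pairs whose ratio separates the genotypes was not counted.

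Kcnk1 encodes TWIK-1, a weakly conducting leak channel that resides largely in recycling endosomes. It gave 176 to 194 CPM in cKO (median 182) and 177 to 196 CPM in WT (median 180). The groups covered the same range, and the log2 fold change was -0.0084 (SE 0.03, 95% interval -0.07 to 0.06). Kcnk12 encodes THIK-2, a subunit of low activity that is retained inside cells. Its 21.0 to 28.4 CPM in cKO (median 26.0) and 21.2 to 27.6 CPM in WT (median 26.4) overlapped throughout, with a wider interval of -0.13 to 0.17.

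Kcnj3 encodes GIRK1, which cannot form a working surface channel on its own and raises the current of the tetramers it joins. It is on the plus strand of chromosome 2 (55435970 to 55598145, mm10) and shares exonic sequence with the antisense transcript Gm26794. Kcnj3 measured 139, 147 and 159 CPM in the lowest, median and highest cKO library and 135, 137 and 142 CPM in those of WT. The genotypes overlapped through cKO replicate 5, the lowest cKO library, and 5 cKO libraries lay above every WT library. Kcnj3 rose 1.08-fold (log2 fold change 0.11, SE 0.03, 95% interval 0.05 to 0.17; edgeR adjusted p = 0.0393). When each of the 12 libraries was dropped in turn the call was lost 10 times and held only without cKO replicate 5 or WT replicate 5, with edgeR adjusted p from 0.00782 to 0.110 and log2 fold changes from 0.09 to 0.13.

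Kcnj6 encodes GIRK2, which reaches the cell surface and can form channels alone, and was the only one of the 9 to lie clearly towards lower values in cKO. It gave 17.0, 19.5 and 20.9 CPM in the lowest, median and highest cKO library and 19.4, 21.9 and 22.6 CPM in those of WT. In this gene 3 cKO libraries were below every WT library and 4 WT libraries above every cKO library. The difference of -0.14 on the log2 scale (SE 0.05, 95% interval -0.25 to -0.03) did not pass (edgeR adjusted p = 0.196).

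Kcnj9 encodes GIRK3, a subunit that carries a lysosomal sorting signal and joins other GIRK subunits. It ranged from 196 to 223 CPM in cKO (median 205) and from 198 to 219 CPM in WT (median 206). Its mean levels of 208 ± 10.03 CPM in cKO and 208 ± 7.34 CPM in WT (SD, n = 6 each) coincided, and the interval of the log2 fold change ran from -0.07 to 0.07.

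Within the GIRK trio, the ratio of Kcnj3 to Kcnj6 separated the genotypes, whereas the libraries of each gene overlapped. Each library held 7.67 Kcnj3 counts per Kcnj6 count in cKO and 6.46 in WT (geometric means). The log2 ratio was 2.94 ± 0.14 in cKO and 2.69 ± 0.08 in WT (SD, n = 6 each), a difference of 0.25 (SE 0.07), and no cKO library overlapped a WT library. How often the ratio of any 2 genes separates the genotypes was not counted. Of these 2 genes, Kcnj6 was not called, and Kcnj3 lost its call in 10 of the 12 fits with a library dropped. The ratios that involve Kcnj9 overlapped: Kcnj3 to Kcnj9 differed by 0.11 (SE 0.05) and Kcnj6 to Kcnj9 by -0.14 (SE 0.07). The sum of the trio was 375 ± 8.98 CPM in cKO and 367 ± 7.62 CPM in WT (SD, n = 6 each).

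**Figure D2:**
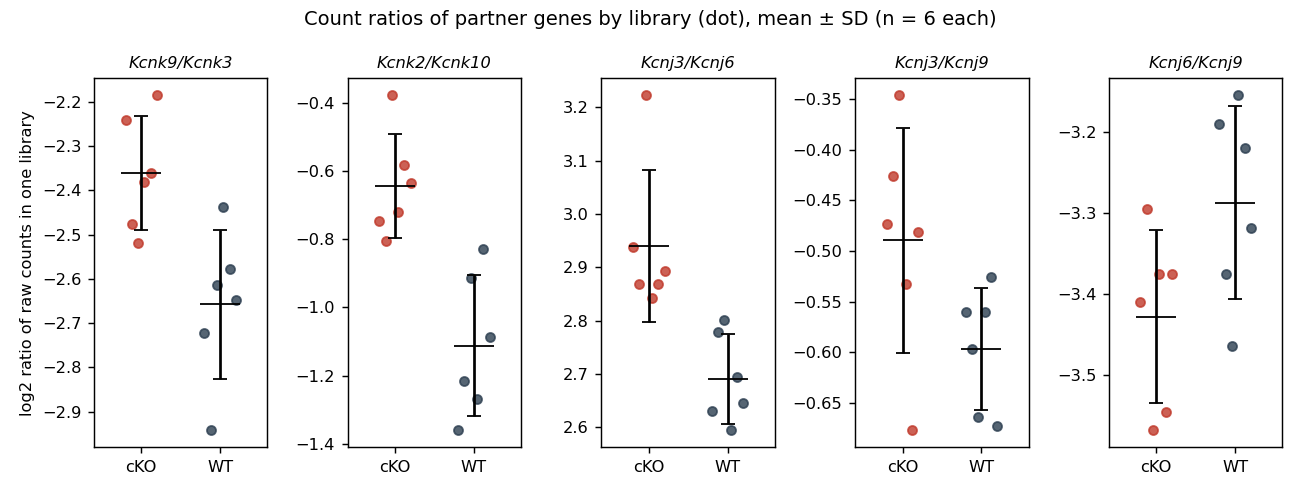
Log2 ratio of raw counts of 2 channel genes in the same library, cKO left and WT right in each panel. Dots are libraries, lines and bars the mean ± SD (n = 6 each), and each vertical axis has its own range that does not start at 0. Kcnk2/Kcnk10 and Kcnj3/Kcnj6 are higher in every cKO library than in any WT library, and the other 3 ratios overlap.

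Promoters of the channel genes are shown where RefSeq gives them (GRCm38.p6, the assembly that mm10 names), for the called genes Kcnk2, at its outermost start, and Kcnj3, and for Kcnj9 as the abundant GIRK gene that was not called. RefSeq entries were at hand for 7 of the 9 genes, 12 starts in all, and not for Kcnk3 and Kcnk9. Each sequence is the 250 bases before the start, written 5′ to 3′ on the strand of the gene, and capitals mark matches to 5 motifs searched on both strands. The windows are chr1:189402274-189402523 (minus strand) for Kcnk2, chr2:55435720-55435969 (plus strand) for Kcnj3 and chr1:172329323-172329572 (minus strand) for Kcnj9.
Kcnk2: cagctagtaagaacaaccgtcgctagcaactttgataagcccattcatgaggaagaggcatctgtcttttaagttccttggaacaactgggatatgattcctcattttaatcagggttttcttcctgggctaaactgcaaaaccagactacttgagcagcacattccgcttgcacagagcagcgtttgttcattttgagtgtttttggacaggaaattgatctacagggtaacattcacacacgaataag
Kcnj3: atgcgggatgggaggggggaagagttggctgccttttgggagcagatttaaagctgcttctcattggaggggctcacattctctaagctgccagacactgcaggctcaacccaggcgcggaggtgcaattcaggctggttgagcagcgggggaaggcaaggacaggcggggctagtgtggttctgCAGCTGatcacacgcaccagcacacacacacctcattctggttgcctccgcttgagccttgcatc
Kcnj9: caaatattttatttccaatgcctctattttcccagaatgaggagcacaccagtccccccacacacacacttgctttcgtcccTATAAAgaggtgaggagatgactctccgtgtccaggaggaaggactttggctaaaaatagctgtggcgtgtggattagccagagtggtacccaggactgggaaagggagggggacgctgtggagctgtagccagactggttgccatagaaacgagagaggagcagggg

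The motifs were the cAMP response element TGACGTCA and its core TGACG, which overlap, the E-box CAGCTG, the GC box GGGCGG and the TATA box TATAAA. They occur in 1.55%, 17.8%, 13.0%, 32.7% and 12.4% of all 32851 RefSeq promoter windows of this length. Kcnk2 showed none of them at the start printed here, Kcnj3 an E-box 65 bases before the start, and Kcnj9 a TATA box 168 bases before the start. Kcnk2 has 3 further RefSeq starts, of which 2 hold the E-box. The full response element and its core were found before none of the 12 starts of these genes, which says only that these letters are not in these windows.

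Levels of the 9 genes were compared with each other only per length, as CPM per kb of exon in GENCODE release M21. Kcnk1 stood highest, at 82.2 ± 2.92 in cKO and 82.6 ± 3.73 in WT, followed by Kcnj9 at 48.5 ± 2.34 in cKO and 48.5 ± 1.71 in WT (SD, n = 6 each). Kcnj3 (28.4 in cKO and 26.4 in WT) and Kcnk3 (27.5 in cKO and 26.3 in WT) came next and were not separable, since their libraries overlapped within each genotype. Kcnk12 followed at 12.9 in both genotypes. The last 4 were Kcnk2 at 3.76 in cKO and 2.70 in WT, Kcnk10 at 3.29 in cKO and 3.27 in WT, Kcnj6 at 2.53 in cKO and 2.79 in WT, and Kcnk9 at 1.74 in cKO and 1.36 in WT. Kcnk2 ranked above Kcnk10 and Kcnj6 in cKO and below both in WT, with libraries that overlapped those of Kcnk10 in both genotypes and those of Kcnj6 in WT. The place of Kcnk9 depends on its single annotated transcript of 12.3 kb: the annotation behind the counts is not given in the sources used here, and a shorter gene model would give a higher level per kb.

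**Figure D3:**
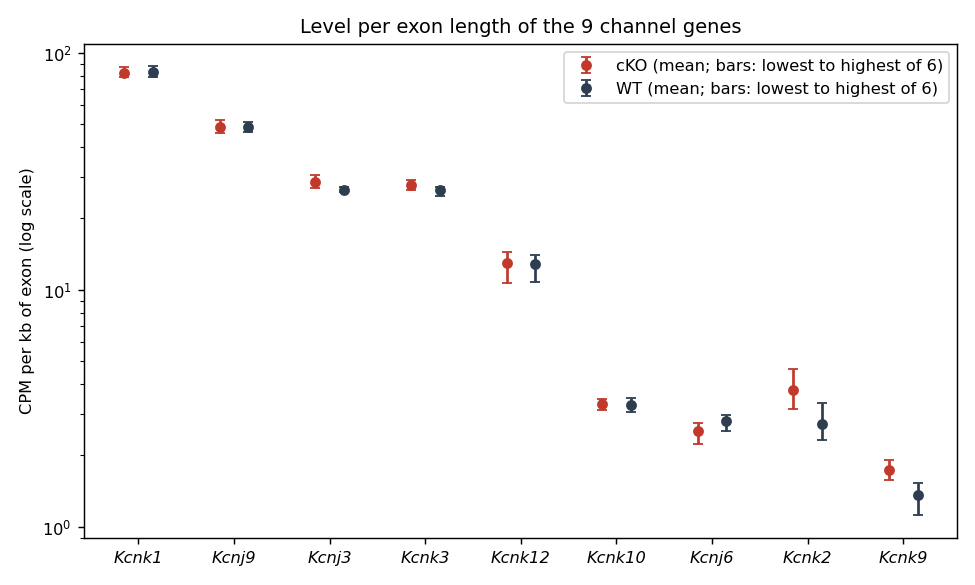
Level of each channel gene as CPM per kb of exon on a log axis, cKO left and WT right of each name, ordered by the WT mean. Dots are means and bars run from the lowest to the highest of 6 libraries. Kcnk1 and Kcnj9 are highest, and Kcnk2 and Kcnk9 are the ones whose cKO dots stand visibly above the WT dots.

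The spread between animals also differed among the genes. The coefficient of variation was 13.2% in cKO and 14.6% in WT for Kcnk2, and 11.1% in cKO and 10.4% in WT for Kcnk12. Counting error alone would give 3.39% in cKO and 4.76% in WT for Kcnk2, and 2.90% in cKO and 3.42% in WT for Kcnk12, so counting error was the smaller part of the spread of both genes. Kcnk10, the other TREK gene, varied by 4.27% in cKO and 4.40% in WT, where counting error would give 2.70% in cKO and 3.22% in WT. Kcnk9 varied by 7.45% in cKO and 10.8% in WT, where counting error would give 3.14% in cKO and 4.24% in WT. Among the 36 pairs of these genes, none moved together from animal to animal beyond the threshold once genotype means were removed. By Pearson correlation the pair with the smallest p was Kcnk9 and Kcnj6 (Pearson r = 0.60, permutation p = 0.0503, adjusted over 36 pairs 0.671; Spearman rho = 0.54, permutation p = 0.0901, adjusted 0.649; n = 12 libraries), and its r was 0.27 without the 2 libraries farthest from the median of Kcnk9. By Spearman correlation it was Kcnk10 and Kcnj3 (rho = 0.70, permutation p = 0.0202, adjusted 0.359; Pearson r = 0.53, permutation p = 0.0838, adjusted 0.671; r = 0.60 without 2 libraries; n = 12 libraries).

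Genes whose level followed each called channel gene most closely over the 12 libraries, after genotype means were removed, were ranked by Pearson correlation among 13820 genes with a mean of at least 1 CPM. For Kcnk9 they included Nalcn (r = 0.93), which encodes a sodium leak channel, and E330009J07Rik (0.92). Nalcn itself had a log2 fold change of -0.05 and was not called (edgeR adjusted p = 0.482). For Kcnk2 they were Nenf (0.92), a secreted neurotrophic factor whose gene lies 1.90 Mb away on chromosome 1, Mir421 (0.87) and Rasd1 (0.85), a Ras-like GTPase. For Kcnj3 they were Cd34 (0.91), a surface sialomucin, Golph3 (0.90), a Golgi protein, and 2900008C10Rik (0.87). For Kcnk1, the gene with the highest level per length, they were Rhoa (0.94), a GTPase of the actin cytoskeleton, Arntl (0.89), a core clock factor, and Plekhj1 (0.88). Correlations picked as the highest of so many over 12 libraries are a description only.

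Other channel genes of both families, listed by name, showed no call. Of 8 other K2P genes 4 were tested and 0 were called by edgeR or DESeq2, with 0 at an unadjusted p under 0.05 and a median log2 fold change of -0.03. Kcnk13, which encodes THIK-1, was the best expressed of them, at 5.76 ± 0.55 CPM in cKO and 5.85 ± 0.50 CPM in WT (SD, n = 6 each). Kcnk4, Kcnk5 and Kcnk6, which had lower p-values than Kcnk13, had log2 fold changes of -0.13, 0.06 and -0.04 (edgeR adjusted p = 0.664, 0.904 and 0.930). Of 11 other Kir genes 10 were tested and 0 were called by edgeR or DESeq2, with 1 at an unadjusted p under 0.05 and a median log2 fold change of 0.02. That gene was Kcnj4, a strong inward rectifier (log2 fold change 0.66, SE 0.27, edgeR adjusted p = 0.259). Kcnj5, which encodes the last GIRK subunit, was nearly absent at 0.19 ± 0.08 CPM in cKO and 0.31 ± 0.13 CPM in WT (SD, n = 6 each), and Kcnj12 had a log2 fold change of 0.06 (adjusted p = 0.405).

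Genes of the pathway that opens and closes GIRK channels were not called either. Of 18 genes for GABA-B receptors and their auxiliary KCTD subunits, Gi and Go proteins, RGS proteins, adenosine and muscarinic receptors and the sorting nexin Snx27, edgeR called 0 of 18, with 5 at an unadjusted p under 0.05, where 14.2% of all tested genes lie, and a median log2 fold change of -0.0055. DESeq2 called 2, both lower, and 3.99% of all genes in either direction. One was Kctd8, an auxiliary subunit of the GABA-B receptor, with 26.0 ± 1.16 CPM in cKO and 29.7 ± 2.50 CPM in WT (SD, n = 6 each) and an adjusted p of 0.0509 by edgeR and 0.0135 by DESeq2. The other was Gabbr2, the receptor subunit that couples to G proteins, with 211 ± 4.98 CPM in cKO and 223 ± 4.92 CPM in WT (SD, n = 6 each) and an adjusted p of 0.0638 by edgeR and 0.00922 by DESeq2. Gabbr1, the subunit that binds GABA, gave 726 ± 6.21 CPM in cKO and 727 ± 16.6 CPM in WT (SD, n = 6 each). Rgs7bp, which anchors RGS proteins to the membrane, had a log2 fold change of -0.08 (edgeR adjusted p = 0.136).

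Among 14 genes of K2P regulators and binding partners, edgeR called 1, higher in cKO, where 1.27% of all tested genes were called higher. Of the 14, 4 were at an unadjusted p under 0.05, again beside 14.2% of all tested genes, and the median log2 fold change was 0.0089. Psd, which encodes the Arf6 exchange factor EFA6A, a binding partner of TWIK-1, averaged 219 ± 12.2 CPM in cKO and 199 ± 5.46 CPM in WT (SD, n = 6 each). This was a log2 fold change of 0.13 (SE 0.03) with an edgeR adjusted p of 0.0337. Its cKO libraries did not overlap its WT libraries, yet the call was lost without cKO replicate 4 or without WT replicate 1, 2, 3 or 4. Plcb1, a phospholipase of the Gq pathway that inhibits TASK channels, and Pld2, a phospholipase D that binds TREK-1, had log2 fold changes of 0.10 and 0.13 (edgeR adjusted p = 0.185 and 0.215).

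As a check of the labels, Crhr1 measured 98.8 ± 6.00 CPM in cKO and 97.6 ± 4.31 CPM in WT (SD, n = 6 each), a sum over the whole gene and all cells that cannot test a deletion in granule cells. Gabra6, the gene the driver is named after, gave 623 ± 30.0 CPM in cKO and 813 ± 56.1 CPM in WT (SD, n = 6 each). Summed levels of 10 granule cell markers ran from 6641 to 7183 CPM in cKO and from 6713 to 7065 CPM in WT, with 1 marker called higher and 2 lower. Those of 7 Purkinje cell markers ran from 8498 to 9558 CPM in cKO and from 9050 to 9391 CPM in WT, with 0 called by edgeR. Of all tested genes, edgeR called 1.27% higher and 1.38% lower. The part of granule and Purkinje cells in the channel genes' differences was not tested.

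Markers of tissue outside the cerebellum, like the called channel genes, were higher on average in cKO. Whether the markers and the channel genes are linked was not tested. A list of 11 forebrain and midbrain markers was 197.6 to 247 CPM in sum in cKO and 191 to 232 CPM in WT. The mean sum was 225 CPM in cKO and 210 CPM in WT, and most of it came from 1 gene, Ppp1r1b. That gene averaged 134 CPM in cKO and 140 CPM in WT, and so leaned lower in cKO (log2 fold change -0.06, edgeR adjusted p = 0.363). Whether Ppp1r1b marks only tissue from outside the cerebellum was not tested. Of the 11, 9 were tested, of which 7 had a positive log2 fold change, beside 7708 of all 15467 tested genes. The dopamine transporter gene Slc6a3 was at 0 in 2 of the 12 libraries. The mean log2 CPM of the list, a tissue score, was 1.90 ± 0.26 in cKO and 1.48 ± 0.19 in WT (SD, n = 6 each), and the 4 highest libraries were all cKO. WT replicate 5 had the highest score of the WT libraries, at 1.84, and also the highest Kcnk2 and Kcnj3 of WT, at 16.4 and 142 CPM. Its Kcnk9, at 18.0 CPM, was above the WT median of 16.6 CPM. In cKO replicate 1, which had the highest score of all, at 2.39, Kcnk2 and Kcnj3 were below their cKO medians, at 16.9 and 146.7 CPM. Its Kcnk9, at 22.1 CPM, was above the cKO median of 21.8 CPM. Kcnk9 was highest, at 23.4 CPM, in cKO replicate 6, whose score of 1.78 was below the cKO mean.

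With the tissue score as a covariate none of the 3 genes was called by edgeR, although their log2 fold changes stayed at 0.43 (SE 0.12, adjusted p = 0.169) for Kcnk2, 0.29 (SE 0.09, adjusted p = 0.192) for Kcnk9 and 0.11 (SE 0.04, adjusted p = 0.356) for Kcnj3. Without the 4 libraries highest in the score, which left 2 cKO and 6 WT libraries, Kcnk2 and Kcnk9 were called, at 0.48 (SE 0.10, adjusted p = 0.0287) and 0.45 (SE 0.08, adjusted p = 0.0115), and Kcnj3 was not, at 0.12 (SE 0.03, adjusted p = 0.0921). The log2 fold change of Kcnj6 was then -0.06 (SE 0.06).

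**Figure D4:**
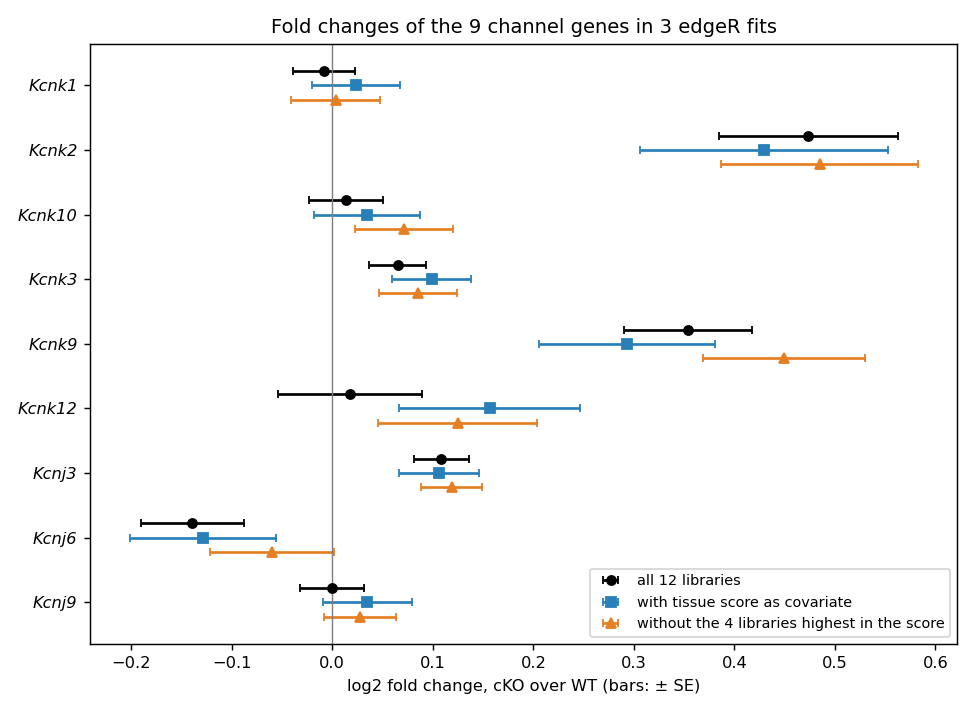
Log2 fold change of cKO over WT for each channel gene in 3 edgeR fits, with bars of ± SE. Black circles use all 12 libraries, blue squares add the tissue score as a covariate, and orange triangles leave out the 4 libraries with the highest score. Kcnk2 and Kcnk9 lie well to the right of 0 in all 3 fits, Kcnj3 at about 0.11 in all 3, and Kcnk9 and Kcnk12 shift most between fits.

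**Figure D5:**
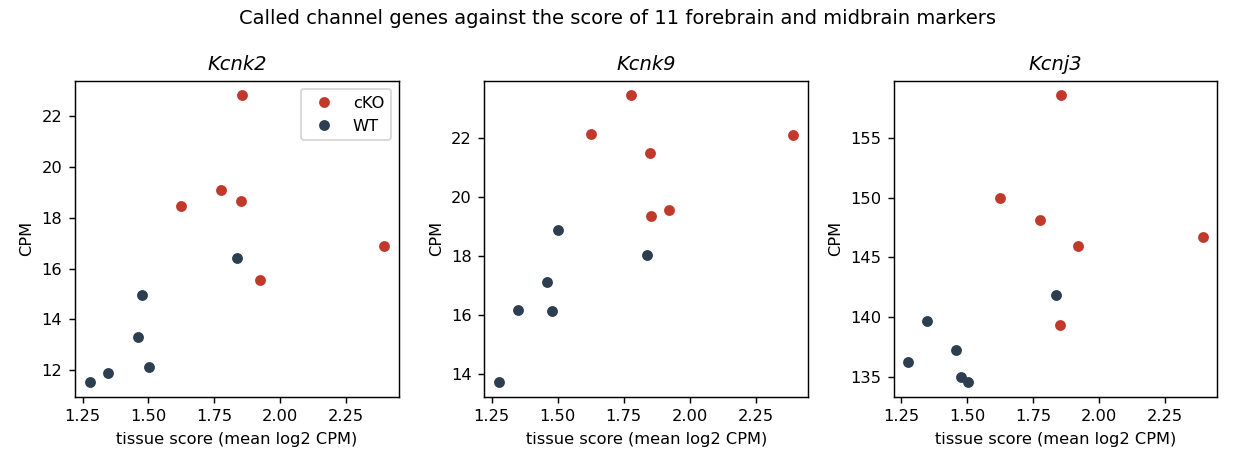
CPM of the 3 called genes against the tissue score, the mean log2 CPM of 11 forebrain and midbrain markers, with 1 dot per library in red for cKO and dark blue for WT. Axes do not start at 0. The 4 libraries with the highest score are all cKO, and the cKO library with the highest score, 2.39, does not have the highest level of any of the 3 genes. The WT library with the highest score, 1.84, has the highest WT level of Kcnk2 and of Kcnj3, but not of Kcnk9.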

How the data were processed

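Messenger RNA of 12 mouse cerebella, 6 cKO and 6 WT, was measured by stranded mRNA sequencing, per the labels' protocols. The table deposited by the authors holds raw counts of 18394 genes, listed by symbol. STAR, DESeq2 and mm10 are named in the submitters' processing notes, while for the counter, strand setting and annotation the sources used here give nothing. The authors also deposited a DESeq2 table with a mean normalized signal, log2 fold changes, a test score and p-values. It was used only to compare calls, log2 fold changes and SE with those fitted here. The 400 genes called in both had the same sign in 400 cases. All 12 count columns were matched to samples, 0 were left unmatched, and 0 rows had no gene name.

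Genotypes were compared with edgeR 4.0.16 under R 4.3.3 (filterByExpr, TMM, glmQLFit, glmQLFTest, Benjamini-Hochberg over 15467 genes at 0.05, no covariate). Standard errors and 95% intervals came from the test statistic. Levels are CPM after TMM. Library totals were 23.8 to 62.1 M counts, and the 9 genes held 282 to 13588 counts per library. Alternatives used DESeq2 1.42.0, sva 3.50.0, limma 3.58.1, no filter, a tissue score and libraries left out. Correlations used 100000 permutations within genotype. Pairs of libraries differed by more than counting noise (smallest chi-square over its degrees of freedom 2.47), which by itself cannot show separate animals. Each library was taken as 1 sample because the labels list it so. Replicate numbers only follow the order of deposit. The fit was tested on simulated data. Members and lists were chosen with earlier results of these data known. Genes named are the 9 members, Crhr1 and Gabra6, and in each related list the called genes and the 3 with the smallest p. Also named are the 3 genes most like each called member and the member with the highest level per length. Other genes named complete a count or were singled out after their values were seen (Kcnk13, Kcnj5, Gabbr1, Slc6a3, Ppp1r1b). Results of some genes these rules name are not reported here. Cell type marker lists of molecular layer interneurons, unipolar brush cells, glia, microglia, endothelium and choroid plexus were also summed.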

Additional observations from a re-analysis of the deposited data

Results flagged for a closer look

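The summed level of the 9 channel genes in WT replicate 4 was 716 CPM, below the other 5 WT libraries by a gap that was 0.752 of the range of the WT group, more than Dixon's 95% critical value for 6 values. Of 20 groups of 6 libraries examined, 1 was picked out in this way, and about 1 in 20 would be by chance.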

How the results depend on the processing

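Kcnk2 and Kcnk9 kept their direction in all 19 alternatives run for each gene and their call in 18, losing it with the tissue score as a covariate. Kcnj3 kept its direction in all 19 and its call in 6. Adjusted p ran from 0.00141 to 0.169 for Kcnk2, from 9.17e-06 to 0.192 for Kcnk9 and from 0.00782 to 0.358 for Kcnj3. With the score, 118 genes were called (59 higher, 59 lower), 0 of the channel genes and 0 of the K2P partners. Without the 4 libraries highest in the score the counts were 148 (76 higher, 72 lower) and 0 K2P partners. With 3 surrogate variables they were 189 (91 higher, 98 lower), and 1 gene of the GIRK pathway, Kctd12, was called, higher. DESeq2 called 2 genes of that pathway. The cause of these shifts was not tested. Leaving out each library gave 272 to 459 called genes, of which 138 to 248 were lower (both lowest without WT replicate 3), 2 to 3 channel genes, 0 to 2 GIRK pathway genes and 0 to 2 K2P partners. Genes near no change reversed: Kcnj9 (-0.00025) was 0.00029 with DESeq2 size factors, 0.00026 with DESeq2, 0.0011 with no filter, 0.035 with the score, 0.028 without the 4 libraries and 0.016 with surrogate variables, and Kcnk1 (-0.0084) was 0.024 with the score and 0.0032 without the 4 libraries. Kcnk12 (0.02, not called) moved to 0.16 with the score, 0.12 without the 4 libraries and 0.10 with surrogate variables, and Kcnk10 (0.01) to 0.03, 0.07 and 0.06 in the same fits. Leaving out each library gave log2 fold changes of -0.021 to 0.016 for Kcnj9, -0.024 to 0.0089 for Kcnk1, -0.0037 to 0.030 for Kcnk10 and -0.026 to 0.062 for Kcnk12. No paired analysis was possible because the labels give no replicate numbers that the genotypes share. Counting error was 4.76% for Kcnk2 in WT, the largest of the 9 genes.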

Other observations

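Markers of other cells in the cerebellum were summed beside the channel genes. The 8 markers of molecular layer interneurons and Golgi cells summed to 1158 ± 28.8 CPM in cKO and 1202 ± 15.6 CPM in WT (SD, n = 6 each). All 8 had negative log2 fold changes, where 7708 of all 15467 tested genes had positive ones. Gad1 was near no change, at -0.02. Only 1 of the 8 was called: Lgi2, a secreted protein of these cells, fell by 13.4% (edgeR adjusted p = 0.00666). The 4 markers of unipolar brush cells summed to 189 ± 3.47 CPM in cKO and 201 ± 6.73 CPM in WT (SD, n = 6 each), and Eomes, a transcription factor of these cells, was the 1 marker called, at 11.8 ± 1.17 CPM in cKO and 21.8 ± 2.06 CPM in WT (SD, n = 6 each). The 5 microglia markers summed to 90.4 ± 5.54 CPM in cKO and 82.0 ± 2.68 CPM in WT (SD, n = 6 each), with 2 called higher, Cx3cr1 and Csf1r. Beside these calls, edgeR called 1.27% of all tested genes higher and 1.38% lower. Of the 6 markers of Bergmann glia and astrocytes, 5 of oligodendrocytes, 3 of endothelium and 5 of choroid plexus, edgeR called 0. Choroid plexus markers differed widely between libraries, from 138 to 1012 CPM in cKO and from 197.5 to 630 CPM in WT. The part of these cells in the channel genes' levels was not tested.

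In the authors' deposited table the same 3 channel genes had an adjusted p under 0.05, with Kcnk9 at 9.49e-06, Kcnk2 at 0.00221 and Kcnj3 at 0.0088. The log2 fold changes in the authors' deposited table were smaller for these genes, at 0.24 for Kcnk9, 0.20 for Kcnk2 and 0.10 for Kcnj3. In that table Kcnk2 thus had a smaller fold than Kcnk9. In the counts fitted here Kcnk2 had the larger one, with edgeR (0.47 against 0.35) and with DESeq2 (0.48 against 0.35). The deposited SE was smaller too: 0.05 for Kcnk2, where the DESeq2 fit gave 0.12. The adjusted p of Kcnk2 was nearly the same in that DESeq2 fit, at 0.00209. With fold and SE both smaller at a like adjusted p, the deposited folds may be on another scale. Their order is therefore not read as a disagreement. The sources used here do not state the settings behind the deposited values.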
